A study of Homo sapiens with 6 samples.

Results

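The genes described here are 10 genes of the step from G1 into S phase: the D-type cyclins CCND1, CCND2 and CCND3, the E-type cyclins CCNE1 and CCNE2, the A-type cyclin CCNA2, the kinases CDK2, CDK4 and CDK6, and the transcription factor gene E2F1. They were taken by symbol from the deposited table of read counts, where each symbol has 1 row, so they make up 10 of its 31762 genes. RNA was sequenced from H460 cells, a wild-type line established from a human large cell lung carcinoma and grown in medium with fetal bovine serum. A group of 3 libraries came from cells kept for 24 h in 20 µM fluoxetine, and the other 3 came from cells labelled as control. Fluoxetine is an antidepressant that blocks serotonin reuptake, and the study asked how it acts on the growth of lung cancer cells. The labels do not say whether the control cells received a vehicle or whether the 3 libraries of a group came from separate cultures, so p-values measure only the spread between these libraries. All results concern RNA in 1 cell line.

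D-type cyclins are made in response to growth signals and bind CDK4 or CDK6. These kinases phosphorylate the retinoblastoma protein, which then releases E2F factors, and E2F factors switch on genes of DNA synthesis along with the genes of cyclin E, cyclin A and E2F1 itself. Cyclin E and then cyclin A bind CDK2 and carry the cell into and through S phase. The abundance of D-, E- and A-type cyclin RNA therefore follows different inputs, namely growth signals for the D-type and cell cycle position for the E- and A-types.

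The libraries held 16157507 to 27823667 counts on genes, and every fluoxetine library was shallower than every control library. At these depths 3 counts, the upper limit that a count of 0 allows, were worth 0.108 to 0.182 CPM (counts scaled to the TMM-normalized library size), which covers counting error only. Control replicate 3 stood apart from the other control libraries, at a chi-square of 13.9 or more per degree of freedom from each of them, where control replicates 1 and 2 were at 6.12. This distance also grows with depth where libraries differ, and control replicate 3 was the deepest library. Fluoxetine replicates 2 and 3 were at 11.6, where fluoxetine replicates 1 and 3 were at 3.68. Among markers of the labelled tissue and cell type, the keratin genes KRT8, KRT18 and KRT19 had 285 to 2095 CPM in every library, whereas EPCAM had at most 11 counts, CDH1 at most 1 and the lung epithelium genes NKX2-1, SFTPC and NAPSA at most 9. Of these keratins KRT18 fell by 0.72 on the log2 scale (adjusted p = 0.00162 from edgeR). Of the 3 fibroblast genes listed, COL1A1 and PDGFRB had 3.20 to 5.34 CPM and COL1A2 had at most 2 counts, and the summed level of the list was 7.55 to 9.99 CPM in control and 7.79 to 8.49 CPM in fluoxetine libraries.

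The RNA of CDK2, E2F1, CCND3 and CCNA2 fell in fluoxetine-treated cells, to between 69.0% and 83.3% of the control level. Genes whose adjusted p in edgeR's quasi-likelihood test was under 0.05 were called changed, at any fold change. By that rule 4 of the 9 tested members fell (44.4%), against 5.32% of all 15646 tested genes. The number was 2 without control replicate 2, fluoxetine replicate 1 or fluoxetine replicate 3, and 4 or 5 without any of the other libraries in turn. The members were chosen with earlier results of these data known, so the share that fell is a description. None was called higher: 0 of the 9 passed by edgeR, against 7.76% of all tested genes, and 0 by DESeq2 or limma-voom. At an unadjusted p-value under 0.05 from edgeR 0 were higher, against 15.8% of all tested genes. With only 9 genes, 0 does not set the members apart from these shares. The falls were modest. With the minimum fold change of 2 used in the study, 0 members passed by edgeR (6 were lower at an unadjusted p-value under 0.05 without that minimum, as were 12.9% of all tested genes), against 0.147% of all tested genes called lower. The median log2 fold change of the 9 members was -0.28, and that of all tested genes was 0.03. In a culture measured as a whole, fewer cells that hold a transcript and less of it in each cell cannot be told apart.

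**Figure D1:**
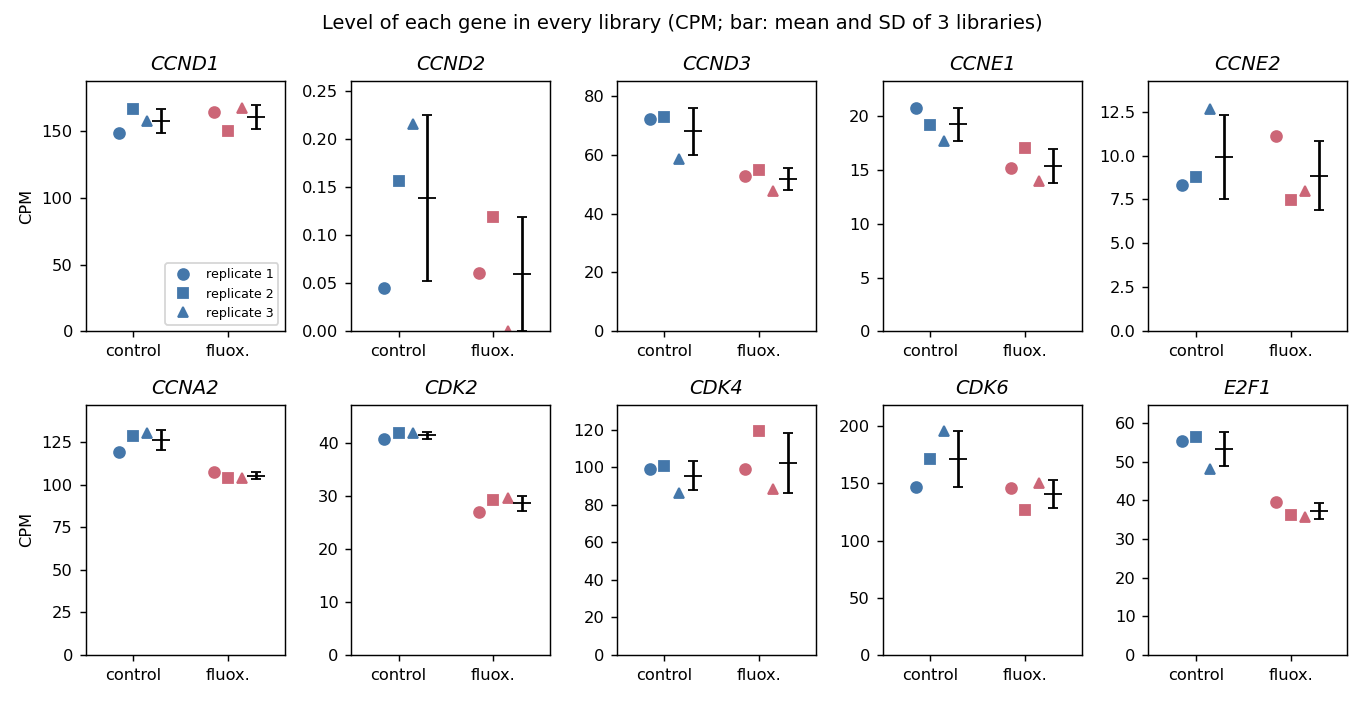
Levels of the 10 genes in each of the 6 libraries, in CPM on axes that start at 0, with control in blue, fluoxetine in red, a symbol per replicate and a black bar for the mean and SD of 3 libraries. CDK2, E2F1, CCND3, CCNA2 and CCNE1 have every fluoxetine library under every control library, while CCND1, CDK4, CDK6 and CCNE2 overlap and CCND2 stays under 0.22 CPM.

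CDK2 (ENSG00000123374, GRCh38 chromosome 12, 55966769 to 55972784, plus strand) encodes the kinase that works with cyclins E and A, and its protein was one that the study followed. Its level was 40.6, 41.9 and 41.8 CPM in the control libraries, in replicate order, against 26.9, 29.2 and 29.7 CPM with fluoxetine. The control libraries were nearly level with each other and all 3 fluoxetine libraries lay clearly below them. The means were 41.4 ± 0.693 CPM (SD, n = 3) and 28.6 ± 1.49 CPM (SD, n = 3). For CDK2 edgeR gave a log2 fold change of -0.54 with a standard error of 0.09 (adjusted p = 0.00363), so treated cells held 69.0% of the control level, with a 95% interval of 60.3% to 78.8%. CDK2 was called lower in all 14 alternative fits, the 6 that each left out 1 library included. It shares 89 exonic bases with PMEL on the other strand, which had a mean of 11.3 counts per library beside 718 for CDK2.

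E2F1 (ENSG00000101412, chromosome 20, 33675683 to 33686404, minus strand) encodes an activating E2F factor and is itself under E2F control. Whether words in its promoter bear on its change with fluoxetine was not tested. The window of 250 bases before to 50 bases after its RefSeq start (GRCh38.p14, chr20:33686336-33686635, minus strand) is given here in its own strand, with E2F-type words and CCAAT boxes in capitals.
E2F1: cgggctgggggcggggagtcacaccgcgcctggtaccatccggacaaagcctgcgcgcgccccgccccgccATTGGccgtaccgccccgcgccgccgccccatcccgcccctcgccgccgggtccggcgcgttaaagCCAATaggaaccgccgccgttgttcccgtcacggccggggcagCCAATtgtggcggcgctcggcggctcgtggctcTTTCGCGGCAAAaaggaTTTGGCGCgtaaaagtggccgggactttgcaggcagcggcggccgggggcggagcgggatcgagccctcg

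The words searched, on both strands, were TTTCCCGC, TTTCCCGG, TTTCGCGC, TTTCGCGG, TTTGGCGC, TTTGGCGG, TTTGCCGC and TTTGCCGG for E2F, and CCAAT for the box that the factor NF-Y binds. In E2F1 an E2F-type word began 37, 33 and 20 bases before the start, the first 2 of them overlapping each other on opposite strands. CCAAT or its reverse complement began 179, 113 and 70 bases before it. An E2F-type word is in 6.19% of the 35116 RefSeq promoter windows of this length, and CCAAT is in 34.6% of them. Of the members, 6 had a window in the RefSeq table (CCNA2, CCND3, CDK4, CDK6, CCNE1 and E2F1), with 9 windows in all, and E2F1 alone of these held an E2F-type word within its window. A match of letters is a description and not a measured binding site.

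The level of E2F1 was 55.3, 56.2 and 48.1 CPM in the control libraries, in replicate order, against 39.6, 36.3 and 35.8 CPM with fluoxetine. The groups did not overlap, although control replicate 3 was the lowest control library. The means were 53.2 ± 4.44 CPM (SD, n = 3) and 37.2 ± 2.08 CPM (SD, n = 3). For E2F1 edgeR gave a log2 fold change of -0.52 with a standard error of 0.09 (adjusted p = 0.00640), which is 69.9% of the control level with a 95% interval of 60.6% to 80.8%. E2F1, like CDK2, was called lower in all 14 alternative fits.

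Among the D-type cyclins, CCND3 fell and CCND1 did not pass the test, while CCND2 was at the edge of detection. CCND3 (ENSG00000112576, chromosome 6, 41934933 to 42050357, minus strand) had 72.1, 72.9 and 58.7 CPM in the control libraries, in replicate order, against 52.9, 54.7 and 47.6 CPM with fluoxetine. The groups were separated by a narrow margin, since the lowest control library (replicate 3) was close to the highest fluoxetine library (replicate 2). For CCND3 edgeR gave a log2 fold change of -0.39 with a standard error of 0.10 (adjusted p = 0.0327), or 76.2% of the control level with a 95% interval of 65.0% to 89.3%. The call held in all 8 fits that kept every library. It was lost without control replicate 1 (adjusted p = 0.0692 from edgeR), control replicate 2 (0.102), fluoxetine replicate 1 (0.116) or fluoxetine replicate 3 (0.114), with the log2 fold change between -0.52 and -0.36 over the 6 fits.

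CCND1 (ENSG00000110092, chromosome 11, 69641087 to 69654474, plus strand), the D-type cyclin classically induced by growth signals, was abundant in both groups. It had 149, 167 and 158 CPM in the control libraries, in replicate order, against 164, 150.4 and 167 CPM with fluoxetine. These ranges overlapped almost wholly. For CCND1 edgeR gave a log2 fold change of 0.03 with a standard error of 0.08 (adjusted p = 0.863), and its 95% interval of 90.6% to 114% of the control level leaves room for a small change in either direction. CCND1 shares 497 exonic bases with ORAOV1 on the other strand, whose log2 fold change was 0.0012 (adjusted p = 0.996 from edgeR).

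CCND2 (ENSG00000118971, chromosome 12, 4273772 to 4305350, plus strand) had counts of 1, 3 and 6 in the control libraries, in replicate order, against 1, 2 and 0 with fluoxetine. It was the only member under edgeR's filter on low counts and so was left out of the test over 15646 genes. Without that filter edgeR gave an adjusted p of 0.696. The 3 counts of the fluoxetine group against the 10 of the control group gave a ratio of 0.410 after scaling, with an exact counting interval of 0.0726 to 1.59, so no difference was detectable at this depth.

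The make-up of the D-type cyclins was compared as the share of CCND1 in the summed level of the family, with each count divided by the exonic length of its gene. The CCND1 share was 71.2%, 73.3% and 76.3% in the control libraries, in replicate order, against 78.9%, 76.7% and 80.9% with fluoxetine. The groups did not overlap, with only a small gap between control replicate 3 and fluoxetine replicate 2. The means were 73.6% ± 2.58 (SD, n = 3) and 78.8% ± 2.06 (SD, n = 3), a difference of 5.20 percentage points, with p = 0.1 in a two-sided exact permutation test, the smallest p that 3 against 3 libraries can give. The level of this share depends on the length used. With the longest annotated transcript the mean CCND1 share was 56.4% in control and 63.3% in fluoxetine libraries.

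**Figure D2:**
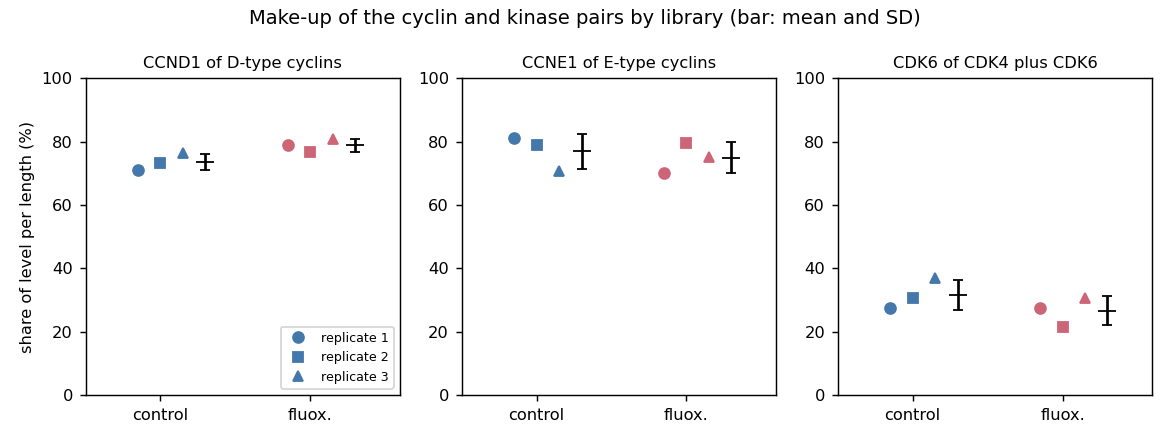
Share of CCND1 in the D-type cyclins, of CCNE1 in the E-type cyclins and of CDK6 in CDK4 plus CDK6, in percent of the summed level per exonic length, for each library with the mean and SD of 3. The CCND1 share is 76.7% or more in every fluoxetine library and 76.3% or less in every control library, whereas the other 2 shares overlap between the groups.

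The kinases that pair with D-type cyclins did not pass the test. CDK4 (ENSG00000135446, chromosome 12, 57747727 to 57756013, minus strand) had 99.3, 101 and 86.6 CPM in the control libraries, in replicate order, against 99.2, 119.7 and 88.3 CPM with fluoxetine. The highest value, in fluoxetine replicate 2, stood apart from the other libraries of its group. For CDK4 edgeR gave a log2 fold change of 0.10 with a standard error of 0.11 (adjusted p = 0.601), and it was -0.06 without fluoxetine replicate 2 (adjusted p = 0.720 from edgeR). CDK4 shares 1369 exonic bases with TSPAN31 on the other strand, which had a mean of 402 counts beside 1951 for CDK4 and differed by 0.25 on the log2 scale (adjusted p = 0.137 from edgeR), so their reads can be told apart in the shared part only if strand was used in counting.

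CDK6 (ENSG00000105810, chromosome 7, 92604921 to 92836594, minus strand) had 147, 171 and 196 CPM in the control libraries, in replicate order, against 146, 127 and 151 CPM with fluoxetine. The control libraries were spread widely and control replicate 1 lay within the fluoxetine range. For CDK6 edgeR gave a log2 fold change of -0.28 with a standard error of 0.11 (adjusted p = 0.120), or 82.5% of the control level with a 95% interval of 69.9% to 97.4%. Without control replicate 1 the log2 fold change was -0.41 and passed the threshold (adjusted p = 0.0326 from edgeR), and it also passed without a filter on low counts (adjusted p = 0.00752 from edgeR). The CDK6 share of the summed CDK4 and CDK6 level per length was 31.7% ± 4.73 (SD, n = 3) in control and 26.5% ± 4.60 (SD, n = 3) in fluoxetine libraries (p = 0.3 in a two-sided exact permutation test). This difference of -5.11 points was -2.51 without control replicate 3 and -2.61 without fluoxetine replicate 2. With the longest annotated transcript as length the mean CDK6 share was 24.3% in control and 20.0% in fluoxetine libraries.

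The E-type cyclins bind CDK2 at the G1/S boundary. CCNE1 (ENSG00000105173, chromosome 19, 29811898 to 29824308, plus strand) had 20.8, 19.2 and 17.7 CPM in the control libraries, in replicate order, against 15.2, 17.0 and 14.0 CPM with fluoxetine. Every fluoxetine library was below every control library, by little in the case of fluoxetine replicate 2 and control replicate 3. For CCNE1 edgeR gave a log2 fold change of -0.32 with a standard error of 0.12, and its adjusted p = 0.0982 did not pass the threshold. It passed without control replicate 3 (log2 fold change -0.41, adjusted p = 0.0268 from edgeR) and without fluoxetine replicate 2 (-0.44, adjusted p = 0.0440). In all, 5 of the 9 tested members had every fluoxetine library below every control library, namely CDK2, E2F1, CCND3, CCNA2 and CCNE1, which held for 14.4% of all tested genes.

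CCNE2 (ENSG00000175305, chromosome 8, 94879770 to 94896678, minus strand) was the least abundant tested member. It had 8.33, 8.79 and 12.7 CPM in the control libraries, in replicate order, against 11.1, 7.48 and 7.96 CPM with fluoxetine. A library of each group was high and the rest lay together, so the groups overlapped. For CCNE2 edgeR gave a log2 fold change of -0.18 with a standard error of 0.20 (adjusted p = 0.601), with a 95% interval of 65.1% to 120.4% of the control level, and it was 0.01 without control replicate 3 (adjusted p = 0.975 from edgeR). CCNE2 shares 1629 exonic bases with INTS8 on the other strand, which had more counts, with a mean of 693 beside 192 per library. The CCNE1 share of the E-type cyclins per length was 77.0% ± 5.52 (SD, n = 3) in control and 75.0% ± 4.75 (SD, n = 3) in fluoxetine libraries (p = 0.7 in a two-sided exact permutation test).

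CCNA2 (ENSG00000145386, chromosome 4, 121816444 to 121823933, minus strand) encodes the cyclin of S and G2 phase. Its level was 119, 129 and 130.4 CPM in the control libraries, in replicate order, against 108, 104 and 104 CPM with fluoxetine. The groups did not overlap and the fluoxetine libraries were close to each other. For CCNA2 edgeR gave a log2 fold change of -0.26 with a standard error of 0.07 (adjusted p = 0.0354), or 83.3% of the control level with a 95% interval of 74.8% to 92.9%. Scaling by library size alone gave an adjusted p of 0.0534 from edgeR. The call was also lost without control replicate 2 (adjusted p = 0.0896 from edgeR), fluoxetine replicate 1 (0.112) or fluoxetine replicate 3 (0.123), while the log2 fold change stayed between -0.34 and -0.27 over the 6 fits. CCNA2 shares 254 exonic bases with EXOSC9 on the other strand, which fell by 0.39 on the log2 scale (adjusted p = 0.00984 from edgeR).

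**Figure D3:**
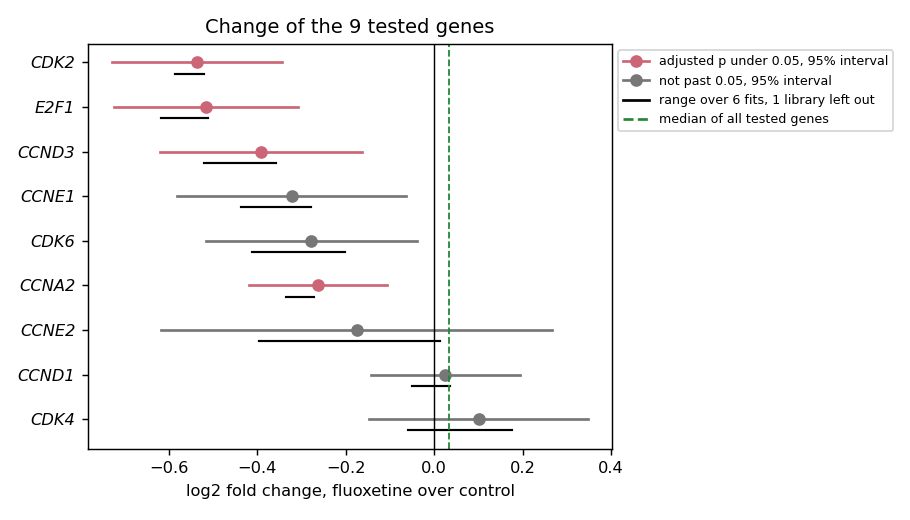
Log2 fold change of fluoxetine over control for the 9 tested genes with its 95% interval, in red where the adjusted p-value was under 0.05, above a black line for the range over the 6 fits that each left out 1 library. The intervals of CDK2, E2F1, CCND3, CCNA2, CCNE1 and CDK6 lie below 0, only the first 4 being past the adjusted threshold, and those of CCNE2, CCND1 and CDK4 span 0.

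Levels of different genes were compared only per length, as RPKM, which is CPM divided by the exonic length in kilobases. In control cells CCNA2 stood highest with 45.1 ± 2.13 RPKM (SD, n = 3), followed by CCND1 with 32.7 ± 1.90 and CDK4 with 30.2 ± 2.45 RPKM. E2F1 had 21.3 ± 1.78 RPKM, CDK6 13.95 ± 1.999, CCND3 11.7 ± 1.38 and CDK2 10.6 ± 0.178 RPKM. CCNE1 had 7.55 ± 0.608 RPKM and CCNE2 2.26 ± 0.541 RPKM, and CCND2 had 0.0194 RPKM. In control cells the libraries of CCND1 and CDK4 overlapped, as did those of CDK6 and CCND3 and those of CCND3 and CDK2, and the other neighbours in this order did not. The order of the means was the same in fluoxetine-treated cells, where CCND1 and CDK4 were the only neighbours that overlapped. There E2F1 had 14.9 ± 0.829 RPKM (SD, n = 3) and CDK2 had 7.33 ± 0.383 RPKM (SD, n = 3). The order depends on the length used: with the longest annotated transcript in place of all exons joined, CDK4 came first with 46.0 RPKM in control cells, and CCND3 had 28.4 RPKM, above E2F1. CDK4 shares 1369 of its 3168 exonic bases with TSPAN31, and CCNE2 shares 1629 of its 4397 with INTS8. How reads from these parts were counted is not known, since the strand setting is not given. The RPKM of CDK4 and CCNE2, and the CDK6 and CCNE1 shares, carry this limit.

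**Figure D4:**
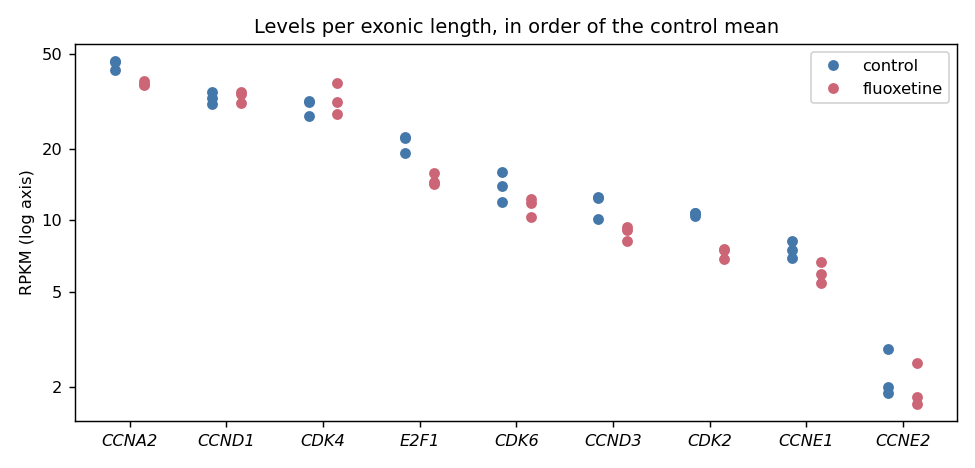
Level per exonic length (RPKM, log axis) of the 9 tested genes in each library, in the order of the control mean, with control in blue and fluoxetine in red. By group mean CCNA2 is highest and CCNE2 lowest in both groups, although CDK4 (37.8 RPKM) is above CCNA2 (37.1 RPKM) in fluoxetine replicate 2, and E2F1 and CDK2 show fluoxetine libraries apart from the control libraries.

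The genes whose profile over the 6 libraries was most like that of a member were found from the root mean square difference of log2 CPM, each gene centred on its own mean. For E2F1 the nearest of the other tested genes were UHRF1, CDCA3 and INSL4, at 0.0317, 0.0337 and 0.0517 on the log2 scale. For CDK2 they were CTPS1, FP565260.1 and LRRC63, at 0.0342, 0.0370 and 0.0395. UHRF1 is needed to maintain DNA methylation at replication, and CTPS1 makes the nucleotide CTP. For CCND1 they were KDM5C, CHST3 and FBXW7, at 0.0136, 0.0176 and 0.0212, and FBXW7 encodes the receptor through which cyclin E is marked for degradation. Within the set, the member nearest to E2F1 was CCND3 at 0.0915, and the member nearest to CDK2 was E2F1 at 0.119. The 3 genes nearest to CDK2 had log2 fold changes of -0.54, -0.51 and -0.53, and the 3 nearest to CCND1 had 0.02, 0.01 and 0.03. Likeness of profile thus largely restates the difference between the groups, and a shared function was not tested. With 6 libraries such a likeness is a description, and the rank of a gene in it has no error estimate.

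Genes that act around the cyclins were read from 8 lists in the same fit. The lists were chosen with earlier results of these data known, so their counts describe these genes and are no independent support. Among E2F target genes of the G1/S transition, such as those of the replicative helicase and of nucleotide synthesis, 21 of 30 tested genes fell (70.0%, against 5.32% of all tested genes) and 9 did not pass the test. The number was 10 without fluoxetine replicate 1 and 16 to 25 without any of the other libraries in turn. Their median log2 fold change was -0.38, against 0.03 for all tested genes. UHRF1 went from 107 ± 5.54 to 73.3 ± 3.84 CPM (SD, n = 3), a difference of -0.54 on the log2 scale (adjusted p = 0.00186 from edgeR). CDC45, a helicase factor, fell by 0.53 (adjusted p = 0.00239), RRM2, a ribonucleotide reductase subunit, by 0.47 (0.00273), and GINS2, another helicase factor, by 0.65 (0.00281) on the log2 scale, from the same edgeR test. These 4 genes were called in all 6 fits that left out a library.

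Of 14 tested G2/M cyclins, kinases and partners of the later cell cycle, 7 fell, against 5.32% of all tested genes, and 7 did not pass, with a median log2 fold change of -0.30. CCNB1, the mitotic cyclin, went from 341 ± 7.81 to 242 ± 11.6 CPM (SD, n = 3; log2 fold change -0.50, adjusted p = 0.00142 from edgeR), and its kinase gene CDK1 from 267 ± 3.04 to 195 ± 6.20 CPM (SD, n = 3; -0.45, adjusted p = 0.00185 from edgeR). CCNB2 fell by 0.47 and CDC20, an activator of the anaphase-promoting complex, by 0.88 on the log2 scale (adjusted p = 0.00343 and 6.73e-04 from edgeR). MKI67, a widely used proliferation marker, was at 498 ± 62.7 CPM in control and 472 ± 97.6 CPM in fluoxetine libraries (SD, n = 3), which differ by -0.08 on the log2 scale (adjusted p = 0.758 from edgeR).

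Among the inhibitors of these kinases and the RB family, 1 of 7 tested genes was called higher (14.3%, against 7.76% of all tested genes) and 0 lower. RBL2, which encodes the RB relative p130, rose from 27.1 ± 3.71 to 36.0 ± 2.48 CPM (SD, n = 3; log2 fold change 0.41, adjusted p = 0.0433 from edgeR), and the other 6 genes did not pass. The RBL2 call held in 1 of the 6 fits that left out a library, that without control replicate 3, with adjusted p-values of 0.00878 to 0.1996 over the 6. CDKN1A, which encodes p21, was at 202 ± 18.6 and 232 ± 24.7 CPM (SD, n = 3; log2 fold change 0.20, adjusted p = 0.192 from edgeR). CDKN1B, which encodes p27, was at 22.7 ± 1.25 and 26.4 ± 1.99 CPM (SD, n = 3; 0.22, adjusted p = 0.183 from edgeR). For CDKN1B, as for RBL2, every fluoxetine library was above every control library. The share of all tested genes for which this held was not computed, so this separation adds nothing to the test, which CDKN1B did not pass. RB1 differed by 0.16 on the log2 scale (adjusted p = 0.347 from edgeR). CDKN2A and CDKN2B have no row among the genes analysed here.

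The next 3 lists held few calls, to be read against the 5.32% of all tested genes called lower and the 7.76% called higher. Of the 9 other E2F and DP factors (22.2% called lower), TFDP1, the DNA-binding partner of E2F proteins, fell by 0.30 and E2F4, a mostly repressive E2F, by 0.37 on the log2 scale (adjusted p = 0.0181 and 0.0220 from edgeR), and the other 7 did not pass. Both calls held in 3 of the 6 fits that left out a library. Among 8 genes that activate CDKs or set their inhibitory phosphorylation, the phosphatase gene CDC25A fell by 0.48 (adjusted p = 0.00647 from edgeR, called in all 6 such fits) and CDC25B rose by 0.35 (adjusted p = 0.0191 from edgeR, called in 2 of 6). Of 12 genes that degrade G1/S cyclins and inhibitors, CKS1B, a CDK-binding cofactor of the SKP2 ligase, fell by 0.47 (adjusted p = 0.00318 from edgeR, called in all 6), RBX1, a ligase subunit, fell by 0.42 (adjusted p = 0.0399 from edgeR, called in 2 of 6 and not at equal depth, adjusted p = 0.0622), and the other 10 did not pass.

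Of 14 tested genes that respond early to growth factors, upstream of cyclin D, 3 rose (21.4%, against 7.76% of all tested genes), namely EGR1 by 0.61, SPRY4 by 0.41 and FOS by 0.60 on the log2 scale (adjusted p = 0.0114, 0.0138 and 0.0395 from edgeR), and these were called in 4, 2 and 1 of the 6 fits that left out a library. FOS was also not called at equal depth (adjusted p = 0.0510 from edgeR). The list held 6 genes with a negative log2 fold change. Of these FOSL1, a FOS relative, and DUSP6, a phosphatase of ERK, were picked out after their values were seen. The reason was that their fluoxetine libraries all lay under their control libraries, a separation that 14.4% of the tested genes showed. In the list of 14 genes 2 were separated in this way and 5 in the opposite way, with fluoxetine higher. Those 5 were EGR1, SPRY4 and FOS, and also FOSB and FOSL2, which did not pass. FOSB differed by 0.97 and FOSL2 by 0.20 on the log2 scale (adjusted p = 0.0734 and 0.144 from edgeR). No background share was computed for the opposite way. FOSL1 differed by -0.32 on the log2 scale (adjusted p = 0.0501 from edgeR, past the threshold in 5 of the 8 alternatives that kept every library and in 2 of the 6 that did not), and DUSP6 by -0.22 (adjusted p = 0.146 from edgeR). No test compared this list with the others. The median of this list was 0.14, and it was -0.04 without control replicate 3 and -0.0099 without fluoxetine replicate 2. Of 24 tested cyclins and CDKs outside G1/S, 2 rose and 22 did not pass, with a median of 0.05. The 2 are 8.33% of the list, close to the 7.76% of all tested genes called higher. CCNG2, an unconventional cyclin linked to cell cycle exit, went from 7.999 ± 0.274 to 20.6 ± 1.09 CPM (SD, n = 3). This was a rise of 1.36 on the log2 scale (adjusted p = 3.95e-05 from edgeR), called in all 6 such fits. CCNG1 rose by 0.27 (adjusted p = 0.0324 from edgeR) and was called in 1 of them, that without control replicate 3, and it was not called without a filter on low counts (adjusted p = 0.0602 from edgeR).

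**Figure D5:**
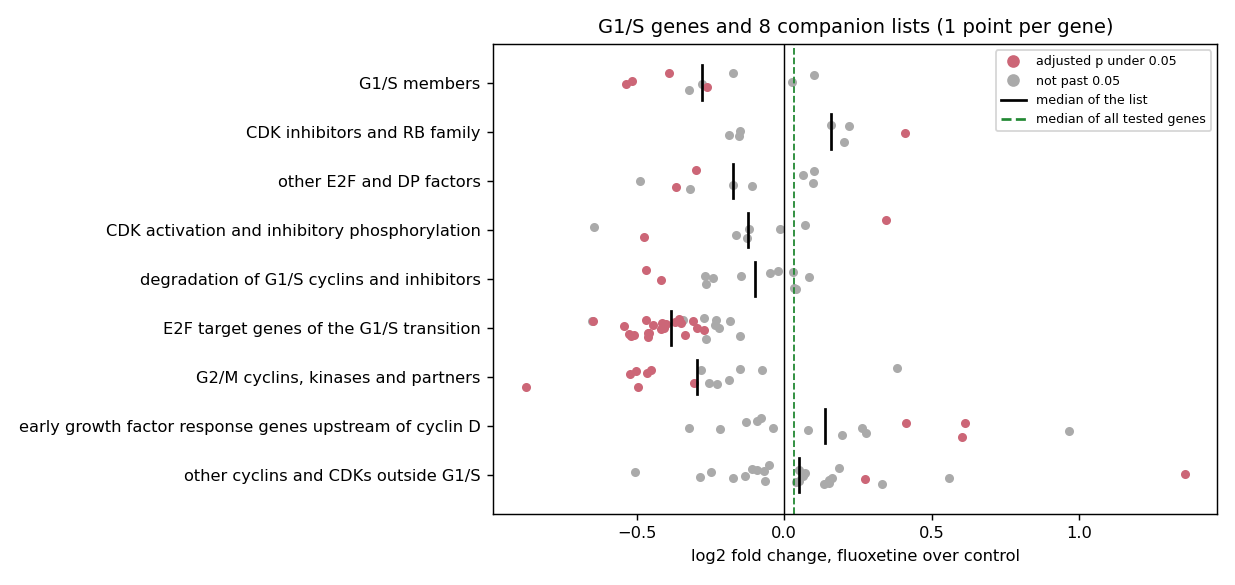
Log2 fold change of every tested gene of the G1/S set and of 8 companion lists, 1 point per gene, in red where the adjusted p-value was under 0.05, with a black line at the median of each list and a dashed line at the median of all tested genes. The medians of the G1/S set, the E2F targets and the G2/M genes lie at -0.28, -0.38 and -0.30, and the single point beyond 1 is CCNG2.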

How the data were processed

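The authors deposited raw read counts per gene for 6 libraries, neither pooled nor normalized. The 3 columns of results that the authors deposited with them (a log2 ratio of the groups, its p-value and that p adjusted) were not used. Reads were paired-end, of 150 bases, and the submitters' processing notes name fastp 0.20.0, HISAT2 2.1.0, HTSeq 0.10.0 and DESeq2 1.18.1. The build, annotation and strand setting are not given in the sources used here. Of the 31635 genes shared with GENCODE release 29 (GRCh38), 96.8% had the same start and end, and lengths came from it. The test was that of edgeR 4.0.16 on R 4.3.3 (filterByExpr, TMM, glmQLFTest, Benjamini-Hochberg over 15646 genes). Standard errors were the log2 fold change divided by the root of F. Profiles used log2 CPM with prior count 2. Members and lists were chosen with earlier results of these data known. Named were all members, up to 4 called genes of each list by smallest p, CDKN1A, CDKN1B, CDKN2A, RB1 and MKI67, 3 nearest profiles, overlapping genes and cell type markers. FOSL1, DUSP6, FOSB and FOSL2 were named outside this rule, after their values were seen. Alternatives were DESeq2 1.42.0, limma-voom (limma 3.58.1), RLE, library size only, other count filters (none, or at least 10 counts in every library), equal depth, a replicate block, and each library left out. The scripts were tested on simulated data. Counting intervals are exact binomial ones. Promoter sequences are those of RefSeq on GRCh38.p14. Western blots and flow cytometry were not analysed here.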

Additional observations from a re-analysis of the deposited data

How the results depend on the processing

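CDK2 and E2F1 kept direction and call in all 14 alternatives, and 4 members were called lower with DESeq2, limma-voom, RLE, equal depth and at least 10 counts in every library. The number was 3 by library size only, 5 without a filter, 6 with a replicate block, which added CCNE1 (adjusted p = 0.0237 from edgeR) and CDK6 (0.00911), 0 with a fold change of at least 2, and 2 to 5 with a library left out. Beside it, the genes called in the 8 lists numbered 7 higher and 33 lower, 1 to 7 and 17 to 48 with a library left out, and 50 lower with the block. Over all genes, 1214 were higher and 833 lower, 2231 and 1787 with the replicate block, 1516 lower without a filter, and 409 to 1627 higher and 163 (without fluoxetine replicate 1) to 2006 (without control replicate 3) lower with a library left out. The labels do not say whether same-numbered libraries were paired. Deviations of same-numbered libraries correlated at 0.0297, 0.116 and 0.392, and fluoxetine replicate 2 correlated best with control replicate 1 (0.320). With 3 libraries per group these correlations cannot decide whether the numbers mark pairs. CCND1 changed sign around 0, with log2 fold changes of -0.0053 with DESeq2, -0.0013 with RLE, -0.010 without a filter, and -0.051 to 0.037 with a library left out, and CDK4 (-0.060 without fluoxetine replicate 2, up to 0.175) and CCNE2 (0.014 without control replicate 3, down to -0.395) did so too. The CCNE1 share differed by -1.96 points, and by -5.08 to 0.450 with a library left out, against 0.146 without control replicate 1. List medians that changed sign were those of growth factor response genes (-0.040 to 0.162 with a library left out, -0.0099 without fluoxetine replicate 2) and of other cyclins and CDKs (-0.0073 without control replicate 1, up to 0.044). The cause was not tested. CCND2, at 10 and 3 counts, was limited by depth.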
